A study of Saccharomyces cerevisiae with 4 samples.

Results

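The genes described here are 10 *S. cerevisiae* genes for the RecQ helicases, their partners, other repair helicases and the nuclear topoisomerases. They are *SGS1*, *TOP3*, *RMI1*, *HRQ1*, *SRS2*, *MPH1*, *RRM3*, *PIF1*, *TOP1* and *TOP2*. They were taken by name from the probe table of the array, and all 10 were among the 5449 yeast genes that the array measured. Each was read by 1 probe set, and none of these probe sets is marked as shared with another gene.

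The data are 4 Affymetrix expression arrays of total RNA from W303-1A cultures in exponential growth, with 3 arrays of cells expressing RECQL5 (replicates 1, 2 and 3) and 1 array of WT cells. RECQL5 cells carried pCM189::RECQL5-FLAG, a centromeric *URA3* plasmid with the cDNA of the human helicase under a tet promoter that doxycycline represses, and WT cells carried empty pCM189. All cultures were mating type a, bore the alleles ura3-1, his3-11,15, trp1-1, can1-100 and ade2-1 and leu2 mutations, and grew in glucose medium without uracil and without doxycycline. The arrays are labelled biological replicates, and the comparison asks how expression of a foreign RecQ helicase alters transcript levels.

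RecQ helicases unwind DNA and limit crossing over during recombination. In yeast, Sgs1 acts in a complex with the topoisomerase Top3 and the accessory subunit Rmi1, which together take apart double Holliday junctions. Srs2 and Mph1 remove recombination intermediates at earlier steps, Pif1 and Rrm3 help replication forks through difficult DNA, and Top1 and Top2 relieve the torsion that transcription and replication create.

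Values are RMA levels on the log2 scale, so a difference of 1 is a doubling, and changes are RECQL5 minus WT. The 3 RECQL5 arrays correlated with each other at 0.989 to 0.996 over the tested genes (Pearson's r) and with WT at 0.917 to 0.931. The medians over tested genes lay between 10.73 and 10.74 on all 4 arrays. Over all probe sets of the array they were 7.01 to 7.14 in RECQL5 and 6.93 in WT. The array also carries probe sets for another yeast, and the 1746 of them whose named gene is absent from the *S. cerevisiae* gene table gave a background with medians of 3.21 to 3.22. Of the mating type and meiosis genes examined, all 7 mating type a, all 4 mating type alpha and 16 of 17 meiosis genes read above the 99th percentile of that background on every array. The median level of the a genes was 12.02 to 12.18 in RECQL5 and 11.54 in WT, while their changes had a median of -0.11, with 3 above WT on all 3 RECQL5 arrays and 2 below. The median level of the alpha genes was 6.26 to 6.83 in RECQL5 and 7.54 in WT, and their changes were -1.58 for *MF(ALPHA)1*, -0.40 for *STE3*, -0.09 for *MF(ALPHA)2* and 0.28 for *SAG1*. The medians of the meiosis genes were 6.83 to 7.24 in RECQL5 and 6.82 in WT.

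**Figure D1:**
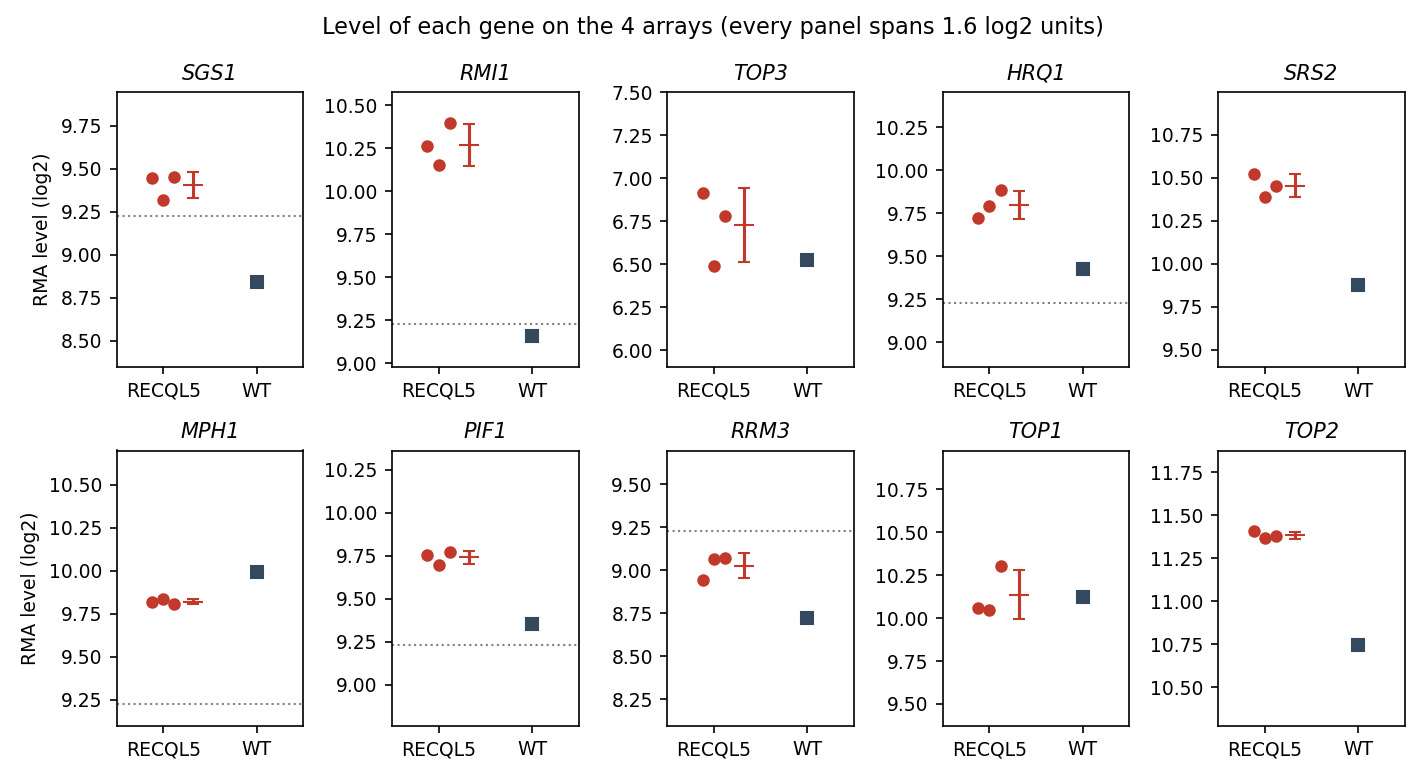
RMA level (log2, y axis) of each gene on the 3 RECQL5 arrays (red circles, replicates 1 to 3 side by side, with mean ± SD at their right) and on the WT array (dark square). Every panel spans 1.6 log2 units, and the dotted line is the filter level of 9.23 where it falls inside the panel. The RECQL5 circles lie above the WT square for 7 genes, below it for *MPH1*, and on both sides of it for *TOP3* and *TOP1*.

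Most of these genes read higher in RECQL5 than in WT. All 3 RECQL5 arrays lay above WT for 7 of the 10, namely *SGS1*, *RMI1*, *HRQ1*, *SRS2*, *RRM3*, *PIF1* and *TOP2*, and below WT for *MPH1*. Over all 5449 genes, the shares were 45.5% above and 39.7% below, and over the genes bright enough to be tested they were 45.5% and 40.6%. The median change of the 10 genes was 0.38, and that of all genes 0.03. *RMI1* and *TOP2* rose past 1.5-fold. RNA was extracted from whole cultures, so a changed share of cells of a kind and a changed transcript level per cell cannot be told apart.

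The 4128 genes whose 4-array mean reached 9.23, which is log2(600), were tested in limma with Benjamini-Hochberg adjustment. Calls needed an adjusted p no higher than 0.1 together with a 1.5-fold difference (0.58 on the log2 scale). *TOP3* and *RRM3* did not pass the level filter, which left 8 of the 10. Of all tested genes, 9.59% were called as rises and 7.8% as falls, and of the 8 tested here 2 were called as rises and 0 as falls. At an adjusted p of at most 0.1 with no fold threshold, 34.6% of tested genes rose and 29.2% fell (63.8% in either direction). Of the 8 tested here, 6 rose and 1 fell. WT is a single array, so the fit sets its distance from the RECQL5 arrays against the spread among those arrays. An exact permutation of 3 arrays against 1 cannot give a p below 0.25.

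The filter bears on these counts, because a mean over 3 RECQL5 arrays and 1 WT array admits genes that are high in RECQL5. *SGS1* (mean just above the filter) and *RMI1* read below 9.23 on the WT array. With all 5449 genes tested, the same 2 genes, *RMI1* and *TOP2*, were called as rises and 0 of the 10 as falls, beside 10.3% and 8.59% of all genes. At the adjusted p alone, 7 of the 10 then rose, *RRM3* being the addition, and *MPH1* fell, beside 33% and 26.7% of all genes. Where 9.23 was required on every array, *SGS1* and *RMI1* were not tested and *TOP2* alone was called. The same limit applies to the gene lists and chromosomal neighbours below, where some tested genes also read below 9.23 in WT.

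Within the Sgs1-Top3-Rmi1 complex, *RMI1* had the largest change. *RMI1* (YPL024W, coding length 726 bp), which encodes the subunit that binds and stimulates Sgs1 and Top3, read 10.26, 10.15 and 10.40 in RECQL5 cells, against 9.16 in WT cells. The lowest RECQL5 array lay 1.00 above WT, about 4 times the range of 0.24 among the RECQL5 arrays. *RMI1* rose 2.16-fold (change 1.11 ± 0.10 SE, 95% interval 0.85 to 1.38, adjusted p = 0.0012, limma). Only 27 of the 4128 tested genes had a larger change. *RMI1*, below the filter level in WT, was tested only because of its RECQL5 readings. Genes under the filter with a larger change, such as *ATF2* (1.84), are not in this count.

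*SGS1* (YMR190C, 4344 bp), the gene of the RecQ helicase itself, read 9.45, 9.32 and 9.45 in RECQL5 cells and 8.84 in WT cells, so the groups did not overlap. Its level differed by a factor of 1.48 (0.56 ± 0.08 SE, 95% interval 0.36 to 0.76, adjusted p = 0.0034, limma), just short of the 1.5-fold threshold. Without RECQL5 replicate 2, the lowest of the 3 arrays, the change was 0.60 and *SGS1* was called. Without replicate 1 or without replicate 3 its mean fell below the filter and it was not tested.

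*TOP3* (YLR234W, 1971 bp) encodes the type IA topoisomerase of the complex. It read 6.91, 6.49 and 6.78 in RECQL5 cells, against 6.52 in WT cells, and WT lay inside the range of the RECQL5 arrays. The difference was 0.20, and in the fit with no level filter its 95% interval ran from -0.25 to 0.66 (adjusted p = 0.37, limma). The reading lay below the brightest background probe set in RECQL5 replicate 2 (6.74) and in WT (6.61) and above it in RECQL5 replicates 1 (6.45) and 3 (6.77), whereas the other 9 genes exceeded every background probe set on every array. Its SD over the RECQL5 arrays, 0.22, was the highest of the 10. The change of *TOP3* was 0.06 with quantile normalization over yeast genes, and 0.11 to 0.32 without single RECQL5 replicates.

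The 3 members of the complex were thus set against the same WT array with changes of 1.11 for *RMI1*, 0.56 for *SGS1* and 0.20 for *TOP3*. In each RECQL5 replicate *RMI1* had the largest distance from WT, at 1.10, 1.00 and 1.24, against 0.60, 0.47 and 0.61 for *SGS1* and 0.39, -0.03 and 0.26 for *TOP3*. Whether these changes differ from each other was not tested.

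**Figure D2:**
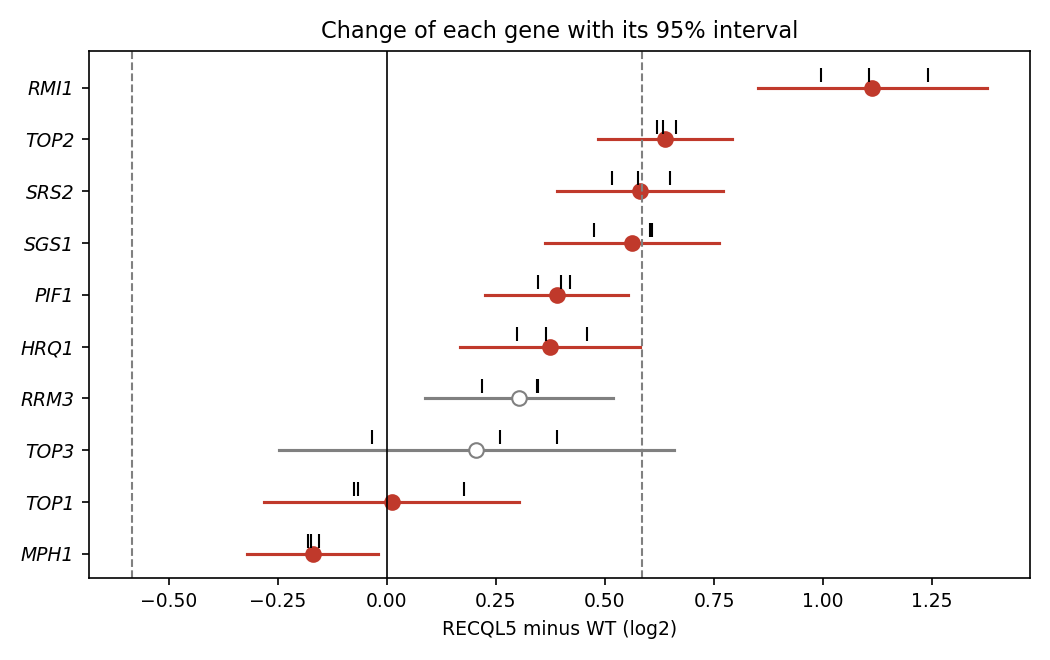
Change of each gene (RECQL5 minus WT, log2, x axis) with its 95% interval, the red circles from the fit over tested genes and the open grey circles of *RRM3* and *TOP3* from the fit with no level filter. Black ticks are the distances of single RECQL5 arrays from WT, and dashed lines mark 1.5-fold. Only the interval of *RMI1* (0.85 to 1.38) lies wholly past 1.5-fold, and the intervals of *TOP3* and *TOP1* include 0.

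*HRQ1* (YDR291W, 3234 bp) encodes the second RecQ helicase of yeast, a relative of human RECQL4 known from the repair of DNA crosslinks. Its readings were 9.72, 9.79 and 9.88 in RECQL5 cells, and 9.42 in WT cells. All RECQL5 arrays were above WT, by 0.30 to 0.46. It rose by the adjusted p alone (0.37 ± 0.08 SE, 1.30-fold, 95% interval 0.17 to 0.58, adjusted p = 0.014, limma), and the interval does not reach 1.5-fold.

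*SRS2* (YJL092W, 3525 bp) encodes a helicase that strips recombinase filaments from single-stranded DNA. Readings of 10.52, 10.39 and 10.45 in RECQL5 cells stood against 9.87 in WT cells, a gap of 0.52 to 0.65 with a range of 0.13 among the RECQL5 arrays. The change of 0.58 ± 0.08 SE (95% interval 0.39 to 0.77, adjusted p = 0.0027, limma) equals a factor of 1.495 and missed the fold threshold by the smallest margin of the 10 genes. Without RECQL5 replicate 2 the change was 0.61 and *SRS2* was called.

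*MPH1* (YIR002C, 2982 bp), whose product is a FANCM-related helicase that undoes D-loops, was the only gene of the 10 below WT on all RECQL5 arrays. It read 9.82, 9.83 and 9.81 in RECQL5 cells and 9.99 in WT cells. The RECQL5 arrays were within 0.025 of each other, the tightest of the 10, and 0.16 to 0.18 below WT. The difference was small (-0.17 ± 0.06 SE, 95% interval -0.32 to -0.02, adjusted p = 0.058, limma), a ratio of RECQL5 to WT of 0.889. The adjusted p was 0.11 without RECQL5 replicate 1 and 0.15 without replicate 2, past the limit of 0.1.

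*PIF1* and *RRM3* encode the 2 helicases of the Pif1 family. Pif1 removes telomerase from chromosome ends, unwinds G-quadruplexes and acts in mitochondria, and Rrm3 moves forks past protein-bound sites such as those of the ribosomal DNA. *PIF1* (YML061C, 2580 bp) read 9.75, 9.70 and 9.77 in RECQL5 cells, against 9.35 in WT cells. It rose by the adjusted p alone (0.39 ± 0.06 SE, 1.31-fold, 95% interval 0.23 to 0.55, adjusted p = 0.0056, limma).

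*RRM3* (YHR031C, 2172 bp) read 8.94, 9.07 and 9.07 in RECQL5 cells and 8.72 in WT cells, below the filter level throughout. Its 3 RECQL5 readings were above WT by 0.22 to 0.35. In the fit with no level filter the change was 0.30 (1.23-fold, 95% interval 0.09 to 0.52, adjusted p = 0.036, limma). Both Pif1 family genes therefore lay above WT and below 1.5-fold.

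Of the 2 other topoisomerase genes, *TOP2* rose and *TOP1* did not pass the test. *TOP2* (YNL088W, 4287 bp), the gene of the essential type II enzyme that separates linked chromosomes, read 11.41, 11.37 and 11.38 in RECQL5 cells, against 10.75 in WT cells. The RECQL5 arrays spanned 0.04 and all were at least 0.62 above WT. *TOP2* rose 1.56-fold (0.64 ± 0.06 SE, 95% interval 0.48 to 0.79, adjusted p = 0.0012, limma).

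*TOP1* (YOL006C, 2310 bp), the gene of the type IB enzyme that relaxes supercoils around transcribing polymerases, read 10.06, 10.05 and 10.30 in RECQL5 cells and 10.12 in WT cells. The arrays of replicates 1 and 2 were 0.07 and 0.08 below WT and that of replicate 3 was 0.18 above it, so WT lay within the RECQL5 range. The change was 0.01 ± 0.12 SE (adjusted p = 0.94, limma), with a 95% interval of -0.28 to 0.30, or 0.823-fold to 1.23-fold. Its sign turned without replicate 3 (-0.07), after cyclic loess, median centring or quantile normalization over yeast genes, and with a trend in gene length or level subtracted.

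**Figure D3:**
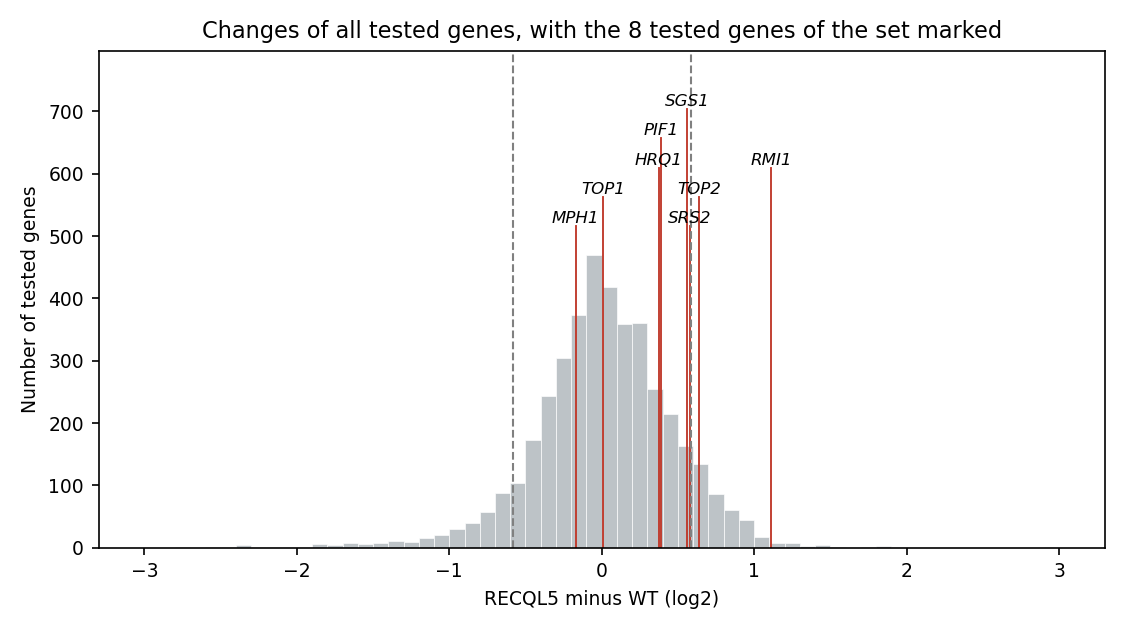
Histogram of the changes (RECQL5 minus WT, log2, x axis, bins of 0.1) of the 4128 tested genes, with red lines at the 8 tested genes of the set and dashed lines at 1.5-fold. *RMI1* at 1.11 stands in the upper tail, and 5 others lie between 0.37 and 0.64, to the right of the peak.

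Among all tested genes, *RMI1* exceeded 99.3% of changes, *TOP2* 92.5%, *SRS2* 90.1%, *SGS1* 89.4%, *PIF1* 80.9% and *HRQ1* 80.1%. *TOP1* exceeded 48.9% and *MPH1* 30.7%. These shares leave out genes under the filter, which *RMI1* and *SGS1*, below it in WT, passed only through their RECQL5 readings. The pattern over the 4 arrays that came closest to that of *RMI1* was that of YMR030W-A (change 1.09), followed by those of *MRX12* (1.05) and *BST1* (1.03), a gene of glycosylphosphatidylinositol processing. These were the smallest Euclidean distances between log2 values centred per gene, at 0.07, 0.13 and 0.14. YMR030W-A read 9.92, 9.90 and 10.08 in RECQL5 cells, against 8.88 in WT cells. For *MPH1* the closest were *PHO13* (-0.16), *TIM13* (-0.18), which encodes a small import chaperone of mitochondria, and *RSC9* (-0.18), of the RSC chromatin remodeller, at distances of 0.01 to 0.02. With 4 arrays, such a pattern is little more than the distance of WT from the rest.

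Over all tested genes, the median change was highest in the longest quintile by annotated gene length, which is not the coding length for every gene. All tested genes of the set other than *RMI1* belonged to the longest quintile of tested genes (2169 bp or more), where the median change was 0.14 and 13.5% were called as rises and 3.15% as falls. In the quintile that holds *RMI1* (687 to 1044 bp) the median was -0.01 and 9.87% were called as rises. With a smooth trend of change with length subtracted, *TOP2* changed by 0.45 (adjusted p = 0.003, limma) and was no longer called, *SRS2* by 0.42, *SGS1* by 0.38, *PIF1* by 0.27, *HRQ1* by 0.22 and *MPH1* by -0.31 (adjusted p = 0.0092). *RMI1* was called as before, at 1.14. The part of length in the changes was not tested beyond this.

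**Figure D4:**
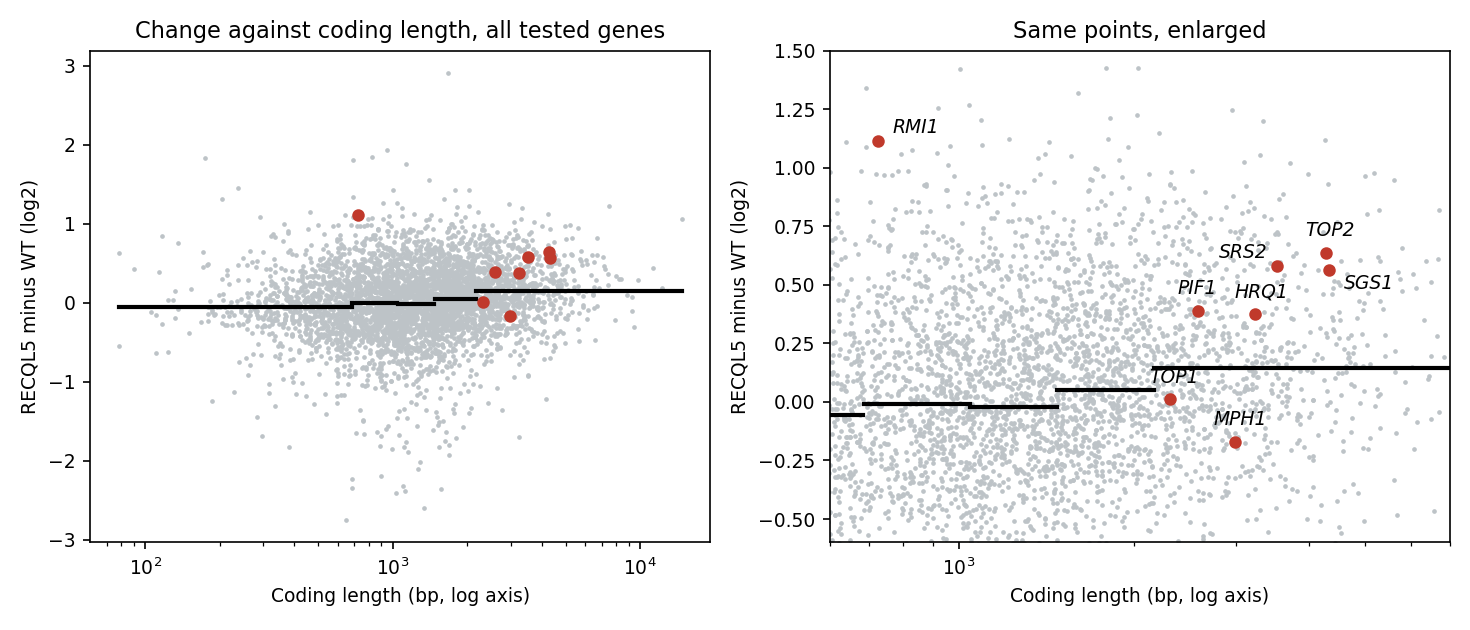
Change (RECQL5 minus WT, log2, y axis) against annotated gene length (bp, log axis, labelled coding length) of the tested genes, all at left and enlarged around the set at right. The 8 tested genes of the set are in red, and black bars mark the median of each length quintile. The bar of the longest quintile stands at 0.14, with *TOP2*, *SRS2*, *SGS1*, *PIF1* and *HRQ1* above it and *TOP1* and *MPH1* below it.

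Some chromosomal neighbours of the 10 genes were also called. Of 20 flanking protein-coding genes in the R64 gene table, 16 were tested, 3 rose and 1 fell, or 25.0% called, beside 17.4% of all tested genes. *OGG1*, the 8-oxoguanine glycosylase gene that is transcribed divergently from *PIF1*, read 9.61, 9.63 and 9.59 in RECQL5 cells, against 8.91 in WT cells (change 0.70). *TCB2*, downstream of *TOP2* on the same strand, rose by 0.72, and *SLT2*, the cell wall kinase gene downstream of *RRM3* on the same strand, by 0.94. *GCV2*, the glycine decarboxylase gene whose 3' end faces that of *SGS1*, changed by -0.61. The neighbours of *RMI1*, *SKS1* (0.40) and *MET12* (-0.05), were not called. These neighbours were chosen by position.

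Genes that work with the RecQ complex gave a mixed picture. Among 13 homologous recombination factors, 6 were tested, and 1 rose and 0 fell, beside 9.59% and 7.8% of all tested genes. Their median change was 0.20 beside 0.02 over all tested genes, and 0.18 over all 13 beside 0.03 over all genes. The riser was *RDH54*, which encodes a DNA translocase related to Rad54. It read 11.02, 11.06 and 11.17 in RECQL5 cells and 10.25 in WT cells (change 0.83, adjusted p = 0.0013, limma). Of 14 end resection and structure-selective nuclease genes, 4 were tested, and 1 rose and 0 fell, beside the same shares (median 0.08 over the tested genes and 0.16 over all 14). Over all 14, 8 lay above WT on all 3 RECQL5 arrays and 3 below, beside 45.5% and 39.7% of all genes. The riser was *EXO1*, whose exonuclease resects DNA ends in parallel with Sgs1 and Dna2. Its readings were 10.29, 10.03 and 10.14 in RECQL5 cells, against 9.28 in WT cells (0.87, adjusted p = 0.0023, limma). Under the filter level and not tested, *DNA2* (0.69), *SAE2* (0.60) and *MUS81* (0.59) also lay more than 1.5-fold above WT, and *SAE2* read below the brightest background probe set on every array. *DNA2*, *SAE2* and *MUS81* were picked for mention after their values were seen. *RAD50* (-0.26), *XRS2* (-0.25) and *RAD10* (-0.24), also not tested, lay below WT on all 3 RECQL5 arrays.

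In the Smc5/6 and SUMO list, 11 of 17 genes were tested, and 1 rose and 0 fell, beside 9.59% and 7.8% of all tested genes. The median was 0.15 over the tested genes of the list and 0.06 over all 17. *NSE5*, a subunit gene of the Smc5/6 complex, read 10.02, 10.07 and 10.17 in RECQL5 cells and 9.18 in WT cells (change 0.91, adjusted p = 0.0011, limma). *NSE5* had the largest change in this list and, like *RMI1*, a WT reading just below the filter level.

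Of 12 other DNA helicase and translocase genes, 8 lay above WT on all 3 RECQL5 arrays and 4 below, beside 45.5% and 39.7% of all genes. The 10 that were tested had a median of 0.38 (0.31 over all 12), and 2 were called as rises and 0 as falls, beside 9.59% and 7.8% of tested genes. By the adjusted p alone, 8 of the 10 rose and 2 fell, beside 34.6% and 29.2% of tested genes. *SEN1*, the gene of a helicase of transcription termination that also unwinds RNA from DNA, read 10.83, 10.69 and 10.74 in RECQL5 cells, against 9.93 in WT cells (0.82). *RAD3*, the gene of the XPD-like helicase of nucleotide excision repair and transcription initiation, read 10.37, 10.33 and 10.34 in RECQL5 cells and 9.66 in WT cells (0.69).

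Replication fork protection genes had 8 of 14 members tested and a median of 0.34 (0.35 over all 14). At 1.5-fold 0 were called in either direction, beside 17.4% of tested genes. By the adjusted p alone 5 of the 8 rose and 1 fell, beside 34.6% and 29.2% of tested genes. These rises include genes such as *RTT107* that read below the filter level in WT (8.99). Over all 14, 9 lay above WT on all 3 RECQL5 arrays and 4 below, beside 45.5% and 39.7% of all genes. The largest changes among the 8 were those of *RTT107* (0.58, adjusted p = 0.0096, limma), a scaffold gene for repair at stalled forks, and *POL32* (0.49), a subunit gene of DNA polymerase delta. In the list of G1/S cyclins and targets of the factors MBF and SBF, 13 of 18 were tested, with a median of 0.35 (0.40 over all 18). Of these 13, 1 rose and 0 fell, beside 9.59% and 7.8% of tested genes. *POL2*, the catalytic subunit gene of DNA polymerase epsilon, read 10.003, 10.025 and 10.045 in RECQL5 cells, against 9.415 in WT cells (0.61).

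Genes linked to topoisomerases went both ways. Of the 6 listed, 4 lay below WT on all 3 RECQL5 arrays and 2 above, beside 39.7% and 45.5% of all genes. The median change was -0.38 over all 6 and 0.01 over the 2 that were tested. *TDP1*, whose phosphodiesterase frees DNA ends from trapped Top1, read 8.02, 7.96 and 7.97 in RECQL5 cells and 8.73 in WT cells (-0.75). Like *TOF1* (0.62), *DDI1* (-0.60) and *WSS1* (-0.37), it lay under the filter level and was not tested. Only *TOF2* (0.41, adjusted p = 0.031, limma) and *TPP1* (-0.38, adjusted p = 0.01) were tested, and neither passed 1.5-fold. *TOF2* read 8.94 in WT, below the filter level. *TOF2* encodes a Top1-interacting protein of the nucleolus, and *TPP1* a phosphatase that cleans DNA 3' ends.

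**Figure D5:**
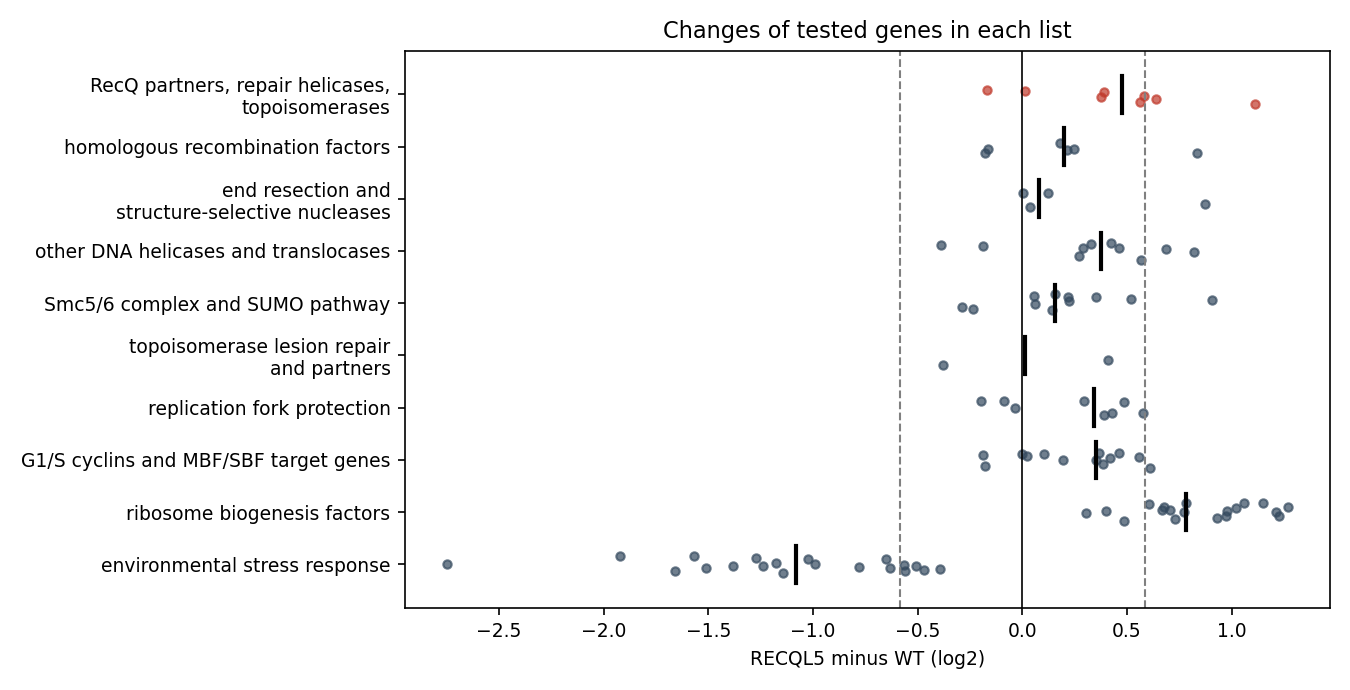
Changes (RECQL5 minus WT, log2, x axis) of the tested genes in each list, the set of RecQ partners, repair helicases and topoisomerases in red at the top, with black bars at the list medians and dashed lines at 1.5-fold. The ribosome biogenesis list has the highest median (0.78) and the stress list the lowest (-1.08). All other medians lie between them, those of the set (0.48 over its 8 tested genes) and the other DNA helicases (0.38) included.

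Growth and stress genes differed between the same arrays. The ribosome biogenesis list of 19 factors had a median of 0.78, with 16 rises and 0 falls, beside 9.59% and 7.8% of tested genes. Its largest changes were those of *FAF1* (1.27), *UTP20* (1.23), *NOP7* (1.21) and *DHR2* (1.15). Of 20 environmental stress genes, 15 fell and 0 rose (median -1.08), beside 7.8% and 9.59% of tested genes. The lowest were *HSP26* (-2.75), *CTT1* (-1.92), *SOL4* (-1.66) and *SSA4* (-1.57). Both lists were written with these directions known. Their part in the changes of the RecQ, helicase and topoisomerase genes was not tested.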

How the data were processed

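The deposited table holds log2 values, made by the authors with RMA (background correction, quantile normalization, median polish). RMA and limma appear among the tools in the submitters' processing notes, without versions. By the study's methods the single WT profile was standardized against published profiles, and whether the deposited WT values precede that step is not known here. Probe sets were named through the platform's probe table and the R64 gene table, with 1 probe set per gene (highest mean of the 4 arrays). RECQL5 was compared with WT in limma 3.58.1 (R 4.3.3, lmFit and eBayes, two-sided, 2 residual degrees of freedom). The number of arrays limits the precision. The fit gives WT the spread seen among RECQL5 arrays. The level of 600, 1.5-fold and adjusted p of 0.1 follow the array section of the study's methods. Another section sets 0.01, which was run as an alternative. The study reports fewer changed genes in each direction than the 396 rises and 322 falls called here. The gap is wide, and the study has more falls than rises, whereas rises outnumber falls here. The reason for these differences was not tested.

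The genes and lists were chosen with earlier results of these data known. Named are the 10 genes, up to 4 called genes of each list with the largest change (up to 2 tested genes where 0 were called), and the 3 genes closest in pattern to the largest rise and the largest fall. Genes under the filter level, chromosomal neighbours and mating type genes are named outside this rule, with their values known. Of the listed genes, 13 of 14 recombination, 18 of 19 G1/S and 4 of 6 mating type alpha genes are analysed here. Sequences and motifs, though planned, are not analysed here. In all, 14 alternatives were run.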

Additional observations from a re-analysis of the deposited data

How the results depend on the processing

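The call of *RMI1* held in all 13 alternatives that tested it (1.05 to 1.17), that of *TOP2* in 13 of 14. With the level filter on every array *RMI1* was not tested. Dropping the fold threshold could not undo a call, and several other alternatives left the changes themselves as they were. Of the 10 genes, 1 was called as a rise with the level filter on every array and 1 with the length trend subtracted, and 6 rose and 1 fell with no fold threshold. Leaving out a RECQL5 replicate gave 2 to 4 rises and 0 falls. Over all genes, 1428 rose and 1206 fell with no fold threshold. An adjusted p of at most 0.01 with 1.5-fold gave 382 rises and 285 falls, with 2 rises and 0 falls among the 10. The other alternatives gave 331 to 560 rises and 286 to 468 falls over all genes. *TOP1* changed sign to -0.00022 with median centring, -0.030 with cyclic loess, -0.0026 with quantile normalization over yeast genes, -0.096 with the length trend and -0.032 with the level trend subtracted, and ranged from -0.071 to 0.055 without single replicates. List medians after cyclic loess were 0.025 for resection and nucleases, 0.32 for other helicases, 0.10 for Smc5/6 and SUMO, and 0.30 for G1/S genes. With the length trend subtracted they were 0.25 for other helicases, 0.068 for Smc5/6 and SUMO, 0.22 for fork protection, 0.16 for G1/S genes and 0.73 for ribosome biogenesis. The cause of these shifts was not tested.

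No paired analysis was possible because RECQL5 and WT share replicate number 1 alone. Leaving out the single WT array leaves no comparison, so how WT cultures vary is not known here.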
